A study of Mus musculus with 4 samples.

Results

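The insulin signalling genes of liver described here are 9 transcripts of the path from the insulin receptor to a secreted target gene: Insr, Irs1, Irs2, Pik3r1, Akt1, Akt2, Foxo1, Foxo3 and Igfbp1. They were taken by symbol from the deposited table of 24138 rows, in which all 9 were found, each in a single row. Bulk RNA sequencing was done on liver from 4 C57BL/6J males, 18 weeks of age, that had been given the FAT-MASH diet, which produces metabolic dysfunction-associated steatohepatitis (MASH), and treated with resolvin D1 (RvD1), a lipid mediator of the resolution of inflammation. The animals form a single group and are called livers 1 to 4 after the numbers in their labels. Livers without the treatment or the diet were not analysed here, so every statement below is about levels in treated animals and about the spread between them. The labels used here give no feeding state, hour of collection or insulin level, and do not say how many mice were pooled, if any.

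Insulin binds a receptor tyrosine kinase on hepatocytes, and the active receptor phosphorylates the adaptor proteins IRS1 and IRS2. These recruit phosphoinositide 3-kinase (PI3K), whose lipid product brings the kinase Akt to the membrane. In liver, Akt promotes glycogen and fat synthesis and phosphorylates the FoxO transcription factors, which then leave the nucleus. During fasting FoxO factors are nuclear and drive genes of glucose output, Igfbp1 and Irs2, so both transcripts are known to fall after feeding. The pathway is regulated largely by phosphorylation, which transcript levels do not show.

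All 9 genes were expressed, that is, had a mean of at least 1 FPKM (fragments scaled by transcript length and by the mapped fragments of the library, a unit that allows genes to be compared). Their means ran from 1.47 FPKM for Irs1 to 50.7 FPKM for Igfbp1. The estimated depth was between 18.8 and 20.1 M fragments per liver. It is a rough figure, because the window of values it was taken from was set beforehand and confines it. At that depth the thinnest value, Irs1 in liver 3, rested on about 176 fragments, a counting error of about 7.54%, the largest of any member in any liver. These errors cover counting only.

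Insr encodes the insulin receptor and lies on chromosome 8 from 3150922 to 3279617 (coordinates of the deposited table, mm10 per the submitters' processing notes). Its level was 10.7, 10.6, 8.99 and 11.9 FPKM in livers 1 to 4, a mean of 10.5 ± 1.19 FPKM (SD, n = 4). Liver 3 was lowest and liver 4 highest. Igf1r, the receptor for insulin-like growth factor 1, which is scarce in hepatocytes, was at 0.324, 0.349, 0.352 and 0.189 FPKM. Insr thus exceeded Igf1r between 25.6-fold and 63.0-fold and made up 97.0 ± 1.06% (SD, n = 4) of the summed FPKM of the insulin and IGF1 receptor genes. The transcripts of insulin itself, Ins1 and Ins2, were listed at 0 in all 4 livers.

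The adaptor transcripts were the lowest of the path. Irs2 (chromosome 8, 10986964 to 11054541) was at 3.95, 3.54, 1.87 and 2.27 FPKM in livers 1 to 4, with a mean of 2.91 ± 0.993 FPKM (SD, n = 4). Livers 1 and 2 were the higher and livers 3 and 4 the lower, and the highest value was 2.11-fold above the lowest. Irs1 (chromosome 1, 82233105 to 82291439) was at 1.74, 1.42, 1.01 and 1.73 FPKM, with a mean of 1.47 ± 0.344 FPKM (SD, n = 4). Liver 3 was lowest for both adaptors. Irs2 exceeded Irs1 in 4 of 4 livers, by 2.27-fold, 2.49-fold, 1.86-fold and 1.32-fold, a mean log2 ratio of 0.95 ± 0.41 (SD, n = 4). The excess was smallest in liver 4, where Irs1 was near its highest value and Irs2 was low. The span listed for Irs2 is also that of the long non-coding RNA 9530052E02Rik, and it reaches upstream past the RefSeq start of Irs2. Without strand information reads of overlapping genes cannot be told apart. That RNA was listed at 0.149 FPKM in liver 1 and at 0 in the others. Irs3 was at most 0.155 FPKM, and Irs4 was listed at 0 in all 4 livers.

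**Figure D1:**
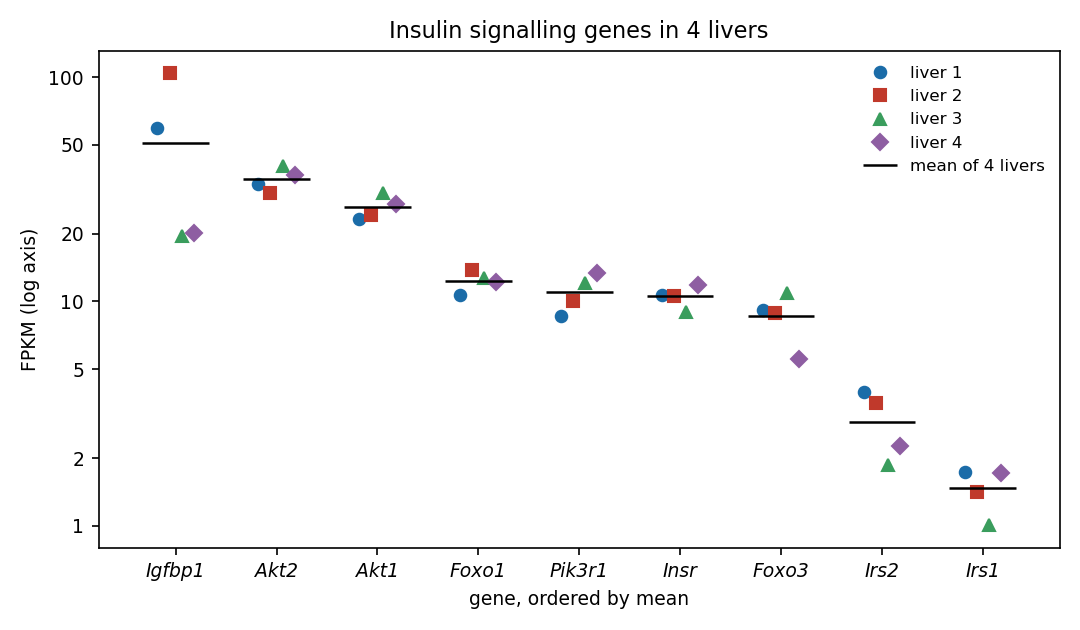
FPKM (vertical log axis) of the 9 insulin signalling genes (horizontal axis, ordered by mean) in livers 1 to 4, with a bar at the mean. Akt2 and Akt1 stand above the receptor, PI3K and FoxO genes, Irs2 and Irs1 stand lowest, and Igfbp1 is spread from 19.6 to 104 FPKM.

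Pik3r1 encodes the main regulatory subunit of PI3K, which holds and stabilises the catalytic subunit. It lies on chromosome 13 from 101680761 to 101768217 and was at 8.65, 10.1, 12.1 and 13.3 FPKM in livers 1 to 4, with a mean of 11.0 ± 2.08 FPKM (SD, n = 4). Liver 1 was lowest and livers 3 and 4 were highest, whereas Irs2 was highest in liver 1. With libraries scaled to a common sum livers 3 and 4 were nearly equal for Pik3r1 and liver 3 came first, at 12.49 against 12.48 FPKM. Pik3r2, the second regulatory subunit gene, had a similar level of 10.2 ± 0.790 FPKM (SD, n = 4), so Pik3r1 held 43.3%, 50.8%, 51.4% and 56.7% of the regulatory transcripts. The summed regulatory transcripts were 1.79, 1.79, 2.83 and 2.22 times the summed catalytic transcripts of Pik3ca, Pik3cb and Pik3cd. The excess was largest in liver 3, where Pik3ca was at its lowest, 3.52 FPKM. Its highest value, 5.26 FPKM, was in liver 2.

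Of the kinases, Akt2 is the isoform most tied to insulin action on metabolism, and Akt1 is more often tied to growth and survival. Akt2 (chromosome 7, 27591560 to 27639453) was at 33.3, 30.5, 40.3 and 36.5 FPKM in livers 1 to 4, with a mean of 35.2 ± 4.22 FPKM (SD, n = 4). Akt1 (chromosome 12, 112653821 to 112674276) was at 23.2, 24.3, 30.6 and 27.3 FPKM, with a mean of 26.3 ± 3.29 FPKM (SD, n = 4). Liver 3 was highest and liver 4 second for both. The ratio of Akt2 to Akt1 varied little, at 1.43, 1.26, 1.32 and 1.34, a mean log2 ratio of 0.42 ± 0.08 (SD, n = 4). Akt2 held 57.2 ± 1.32% (SD, n = 4) of the summed FPKM of Akt1 and Akt2.

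Foxo1, the FoxO factor best known for driving glucose output in liver, was at 10.6, 13.8, 12.7 and 12.2 FPKM in livers 1 to 4 (chromosome 3, 52268337 to 52350109), with a mean of 12.3 ± 1.29 FPKM (SD, n = 4). Its highest value was 1.29-fold above its lowest. Foxo3, a related factor also tied to autophagy and stress resistance, was at 9.14, 8.87, 10.9 and 5.55 FPKM (chromosome 10, 42185786 to 42276742), with a mean of 8.63 ± 2.25 FPKM (SD, n = 4). Liver 4 stood below the rest. Foxo3 was below Foxo1 in 4 of 4 livers, and the ratio of Foxo3 to Foxo1 was 0.859, 0.645, 0.862 and 0.455, a mean log2 ratio of -0.55 ± 0.44 (SD, n = 4). Foxo4 was of similar abundance at 8.49 to 10.6 FPKM, and Foxo6 was at most 0.0832 FPKM. In liver 4 Foxo3 made up 19.6% of the FoxO transcripts, against 28.4% to 32.6% in the other livers.

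**Figure D2:**
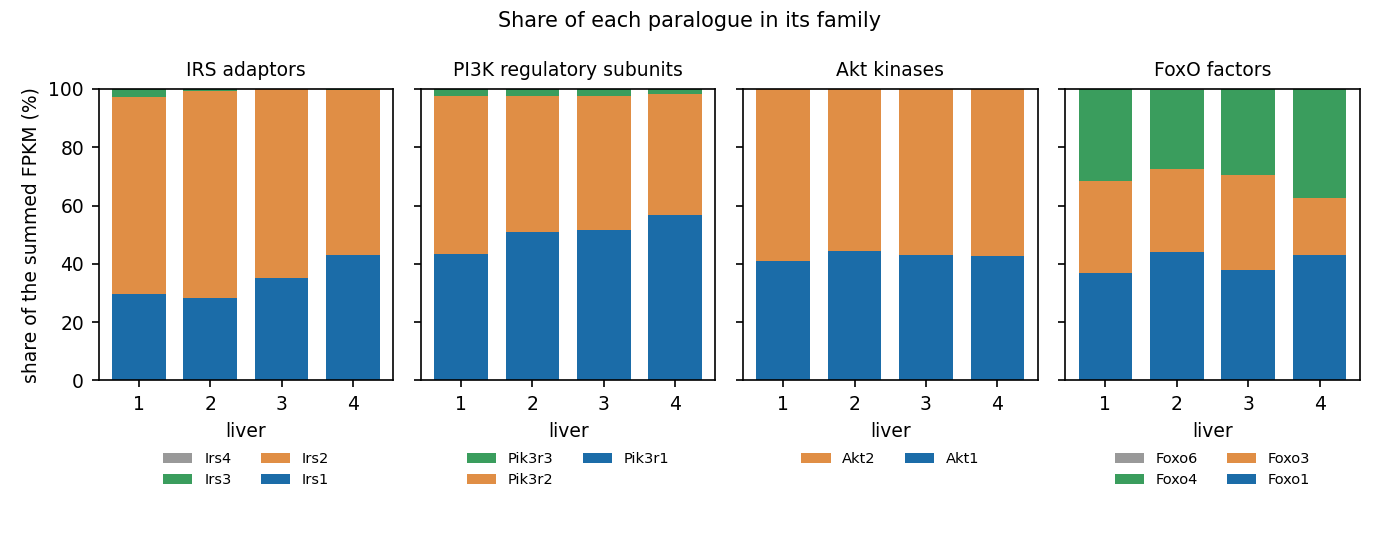
Share of the summed FPKM (vertical axis, percent) that each paralogue held within its family in livers 1 to 4, for the IRS adaptors, the PI3K regulatory subunits, Akt1 with Akt2, and the FoxO factors. The Akt shares are nearly alike in the 4 livers, with Akt2 between 55.7% and 58.9%, whereas Irs2 ranges from 56.6% to 70.9% and Foxo3 from 19.6% to 32.6%.

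The 3 paralogue ratios each had the same direction in all 4 livers. With 4 livers an exact two-sided sign-flip permutation test cannot go below 2 of 16 sign patterns, which is the value it gave for each ratio, before and after Benjamini-Hochberg adjustment over the 3 ratios. The test therefore cannot reach the 0.05 level. When the members were ordered by mean, the ranges of Akt1 and Foxo1 did not overlap, nor did those of Foxo3 and Irs2 or of Irs2 and Irs1. The ranges of Foxo1, Pik3r1, Insr and Foxo3 overlapped at each step. Overlap alone does not show that genes are alike, since all were measured in the same livers. Foxo1 was above Pik3r1 in 3 of 4 livers and Pik3r1 above Insr in 2 of 4. Insr was above Foxo3 in 3 of 4 livers, and Foxo1 was above Foxo3 within each liver. The ranges of Akt2 and Akt1 touched, between 30.5 and 30.6 FPKM, although Akt2 was above Akt1 within each liver.

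Igfbp1 encodes a secreted protein that binds insulin-like growth factors in blood and is known as a liver transcript that insulin represses and FoxO1 induces. It lies on chromosome 11 from 7197787 to 7202546 and was at 59.3, 104, 19.6 and 20.1 FPKM in livers 1 to 4, with a mean of 50.7 ± 40.0 FPKM (SD, n = 4). Liver 2 was highest, liver 1 second, and livers 3 and 4 were nearly equal, with a 5.31-fold range in all. Igfbp1 was the most abundant of the 9 transcripts in livers 1 and 2 and the third most abundant, below Akt2 and Akt1, in livers 3 and 4. Without liver 2 its mean was 33.0 FPKM. Its share of the summed transcripts of Igfbp1 to Igfbp7 was 3.54%, 5.89%, 1.01% and 1.01%. The family was led in every liver by Igfbp4, at 975 ± 137 FPKM, followed on average by Igfbp2 at 461 ± 117 FPKM and Igfbp7 at 343 ± 61.5 FPKM (each SD, n = 4). Liver 2, where Igfbp1 was highest, had the lowest Igfbp2, at 305 FPKM against 439 to 562 FPKM in the other livers.

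The upstream sequences of Igfbp1 and Irs2 are shown because these are the members known as FoxO targets, and both were higher in livers 1 and 2 than in livers 3 and 4. Each is the 250 bases before the RefSeq start on GRCm38.p6, read 5′ to 3′ on the strand of the gene, with capitals marking motif matches (chr11:7197537-7197786, plus strand, and chr8:11008930-11009179, minus strand).
Igfbp1: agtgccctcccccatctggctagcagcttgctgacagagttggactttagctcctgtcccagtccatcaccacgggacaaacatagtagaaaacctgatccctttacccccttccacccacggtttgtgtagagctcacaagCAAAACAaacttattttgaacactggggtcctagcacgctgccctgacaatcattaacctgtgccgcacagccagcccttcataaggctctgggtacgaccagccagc
Irs2: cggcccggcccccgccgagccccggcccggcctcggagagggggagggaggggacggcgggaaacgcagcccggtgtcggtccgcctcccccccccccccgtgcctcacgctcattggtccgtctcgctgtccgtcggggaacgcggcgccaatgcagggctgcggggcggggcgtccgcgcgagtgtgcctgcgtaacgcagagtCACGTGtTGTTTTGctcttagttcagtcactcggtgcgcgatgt

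Windows of this length were searched on both strands for 3 motifs: CAAAACA, the core of the insulin response element, GTAAACA, a FoxO consensus, and CACGTG, an E-box. RefSeq windows were matched for 8 of the 9 members, 13 windows in all, because some genes have several starts. The Igfbp1 window held CAAAACA, beginning 108 bases before the start. The Irs2 window held its reverse complement TGTTTTG at 37 bases before the start and CACGTG at 44 bases before it, separated by a single base. Among the other members, Irs1 held TGTTTTG at 111 and 32 bases and CACGTG at 115 bases before its start, where the first letters of TGTTTTG overlap the end of CACGTG. A window of Akt1 held TGTTTAC, the reverse complement of GTAAACA, at 161 bases. Over all 32851 windows, 5.56% held CAAAACA or its complement, 3.17% held GTAAACA and 6.02% held CACGTG. These matches are descriptions of letters and not of bound sites.

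The spread between livers was measured as the SD of log2(FPKM + 1). On this scale the differences of low genes such as Irs1 are understated. It was 1.16 for Igfbp1, above the SD of 99.8% of the 10541 expressed features. Irs2 and Foxo3 both had an SD of 0.37, above 95.6% and 95.3% of features, and Pik3r1 had 0.25, above 82.7%. Among the other members, Irs1 had 0.21, Akt1 and Akt2 0.17, Insr 0.15 and Foxo1 0.14. Irs1 reached 0.26 without liver 2 and 0.34 with a pseudocount of 0.1, and was at 0.10 without liver 3. Insr was at 0.08 without liver 3, and Foxo1 at 0.08 without liver 1. The median of the 9 members was 0.21 and that of all expressed features 0.16. An SD of at least 0.25 was found for 4 of 9 members, against 18.3% of all expressed features. Pik3r1 sits at this boundary and was below it when the libraries were scaled to a common sum or by median ratios. Without liver 4 the count was 2, since Pik3r1 and Foxo3 were then below it, Foxo3 at 0.15.

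**Figure D3:**
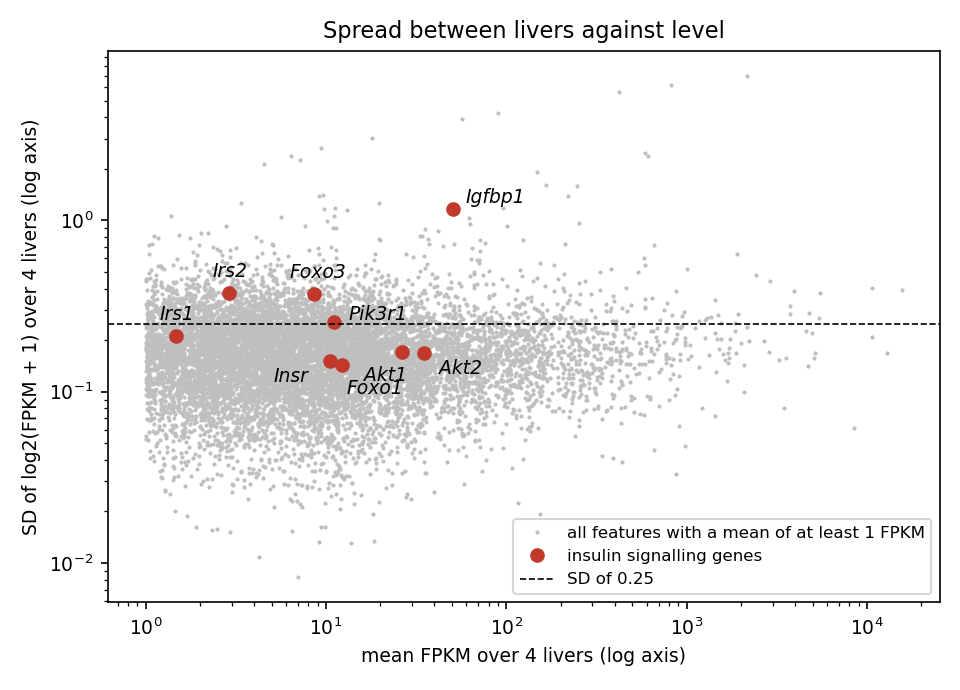
SD of log2(FPKM + 1) over 4 livers (vertical log axis) against mean FPKM (horizontal log axis) for the 10541 expressed features (grey) and the 9 insulin signalling genes (red), with a dashed line at an SD of 0.25. Igfbp1 lies far above the bulk of genes of like level, Irs2 and Foxo3 lie in the upper margin, and Insr, Foxo1, Akt1 and Akt2 lie within the bulk.

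No member had a single liver far from the other 3, by Dixon's ratio of the gap to the nearest liver over the whole range (0 of 9, against 5.64% of all expressed features past its 95% critical value for 4 samples). Igfbp1 had a ratio of 0.529, because livers 1 and 2 both stood away from livers 3 and 4, and Foxo3 had the highest ratio, 0.616. With libraries scaled to a common sum the count was 1, namely Insr, which was at 9.28 FPKM in liver 3 and at 10.8 to 11.1 FPKM in the other livers.

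The 5 features whose deviations from their own mean were nearest to those of Igfbp1 were sought among 6538 features with a mean of at least 5 FPKM, by the root mean square difference over the 4 livers. The nearest was 8430408G22Rik, listed as Depp1 in RefSeq, at 162, 145, 53.3 and 46.4 FPKM in livers 1 to 4, with a difference of 0.38 on the log2 scale. Orm2, an acute phase glycoprotein gene, followed at 0.45, and Gdf15, a stress-induced cytokine gene, at 0.47. Btg2, which encodes an antiproliferative protein, was at 0.53 and Efna1, which encodes a membrane-bound ligand, at 0.57. On the same scale the deviations of Igfbp1 itself ran from -0.99 in liver 3 to 1.36 in liver 2.

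Beside the members, 110 genes of the insulin pathway in 11 lists were examined. Of these 94 were expressed and 4 were listed at 0 in every liver (Ins1, Ins2, Irs4 and Scd1). An SD of at least 0.25 was found for 27 of the 94, or 28.7%. Over all expressed features the share was 18.3%, and differences between lists were not tested. The counts were 0 of 6 PI3K subunits, 0 of 8 FoxO relatives and cofactors, 1 of 6 adaptors, 1 of 12 negative regulators, 1 of 10 genes of the mTORC1 arm and 2 of 11 kinases around Akt. In the other lists they were 6 of 14 FoxO targets, 7 of 10 insulin-induced genes, 5 of 7 genes of the other IGF-binding proteins and their partner Igfals, 2 of 5 genes of the glycogen arm and 2 of 5 ligand, receptor and clearance genes.

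Among the negative regulators, Grb14, an adaptor that inhibits the insulin receptor kinase and is abundant in liver, was at 32.4 ± 2.76 FPKM (SD, n = 4), above Insr in each liver. Ptprf, a receptor phosphatase, was at 25.9 ± 1.80 FPKM (SD, n = 4). Both had an SD on the log2 scale below 0.25. Trib3, a pseudokinase that binds Akt, varied most of the list, at 4.79, 2.88, 2.11 and 3.07 FPKM. Socs3, a cytokine-induced inhibitor, was at 1.73, 2.17, 2.59 and 2.87 FPKM, so its lowest value was in liver 1.

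Of the adaptors and kinases, Shc1, Sh2b1 and Grb2 led the adaptors at 19.4 ± 2.07, 15.1 ± 2.49 and 12.7 ± 0.401 FPKM (each SD, n = 4). All 3 were thus above Irs1 and Irs2. Among kinases around Akt, Sgk2 was at 19.2 ± 4.00 FPKM, Mapkap1, a subunit of the mTOR complex that phosphorylates Akt, at 14.3 ± 1.68 FPKM and Sgk1 at 9.43 ± 0.399 FPKM (each SD, n = 4). Mlst8, a subunit of both mTOR complexes, was at 1.91 FPKM in liver 2 and at 3.31 to 3.71 FPKM in the other livers. In the mTORC1 arm, Akt1s1, an Akt substrate that restrains this complex, was at 43.0 FPKM in liver 3, where Akt1 and Akt2 were also highest, and at 22.9 to 27.6 FPKM elsewhere. Eif4ebp1 and Eif4ebp2, which encode repressors of translation inactivated by mTORC1, led that list at 75.9 ± 8.96 and 50.9 ± 6.33 FPKM (each SD, n = 4).

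In the glycogen arm, Ppp1r3b, which brings a phosphatase to glycogen and activates glycogen synthase, was at 34.7, 55.8, 91.5 and 74.1 FPKM in livers 1 to 4. Its lowest value was in liver 1 and its highest in liver 3. Ppp1r3c, a gene of the same kind, was at 6.62, 3.12, 8.28 and 5.91 FPKM. Gys2, the liver glycogen synthase, was at 138 ± 22.5 FPKM and Gsk3a, a kinase that inhibits it and is itself inhibited by Akt, at 35.6 ± 3.03 FPKM (each SD, n = 4).

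FoxO target genes did not share a single placing of the livers. Livers 1 to 4 were highest for 5, 4, 1 and 4 of the 14 targets, where they were highest for 17.9%, 22%, 26.8% and 33.3% of all expressed features. Pck1, which catalyses an early step of gluconeogenesis, was at 1135, 903, 767 and 873 FPKM, in the same order of livers as Irs2. G6pc, which releases free glucose, was at 131, 134, 242 and 149 FPKM, so its highest value was in liver 3, where Igfbp1 and Irs2 were low. Bcl6, a transcriptional repressor, was at 25.6, 4.14, 5.66 and 3.69 FPKM, with liver 1 far above the others. Pdk4, which limits glucose oxidation, was at 3.73, 5.66, 3.36 and 1.58 FPKM, and Apoc3, an apolipoprotein, at 5167 ± 606 FPKM (SD, n = 4). Relative to the gene means, the median of the list was 0.08, 0.03, -0.10 and -0.02 in livers 1 to 4, and that of all expressed features -0.01, -0.02, -0.01 and 0.04.

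Insulin-induced genes were highest in liver 3 for 9 of 10, against 26.8% of all expressed features, and the count was 9 under both other scalings of the libraries. Other lists also had genes highest there, with 5 of 6 adaptors, 5 of 10 genes of the mTORC1 arm and the hepatocyte markers Hnf4a and Cps1, and the lists were not tested against each other. Their median deviation was 0.03, -0.09, 0.35 and -0.30 in livers 1 to 4. Thrsp, a lipogenic nuclear protein gene, was at 1215, 1267, 2012 and 1289 FPKM and Fasn, the fatty acid synthase, at 237, 176, 286 and 132 FPKM. Liver 3, where these were highest, had the lowest Insr, Irs1, Irs2 and Igfbp1 and the highest Akt1, Akt2 and Foxo3 of the deposited values. With either other scaling Igfbp1 was lowest in liver 4, since livers 3 and 4 were nearly equal for it.

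Foxo3 had the same order of livers (3, 1, 2, 4 from high to low) as 5 of the 10 insulin-induced genes, namely Fasn, Acly, Elovl6, Mlxipl and Pklr, against 4.27% of all expressed features. The count was 5 under both other scalings and 8 without liver 1, which leaves fewer possible orders. This comparison was chosen after the values were seen, and was made for each of the 4 members with an SD of at least 0.25. Over all 94 expressed pathway genes, 7 had the order of Foxo3, 8 that of Igfbp1 (background 4.05%), 1 that of Irs2 (2.9%) and 6 that of Pik3r1 (3.53%). The order of Igfbp1 rests on a small difference between livers 3 and 4.

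**Figure D4:**
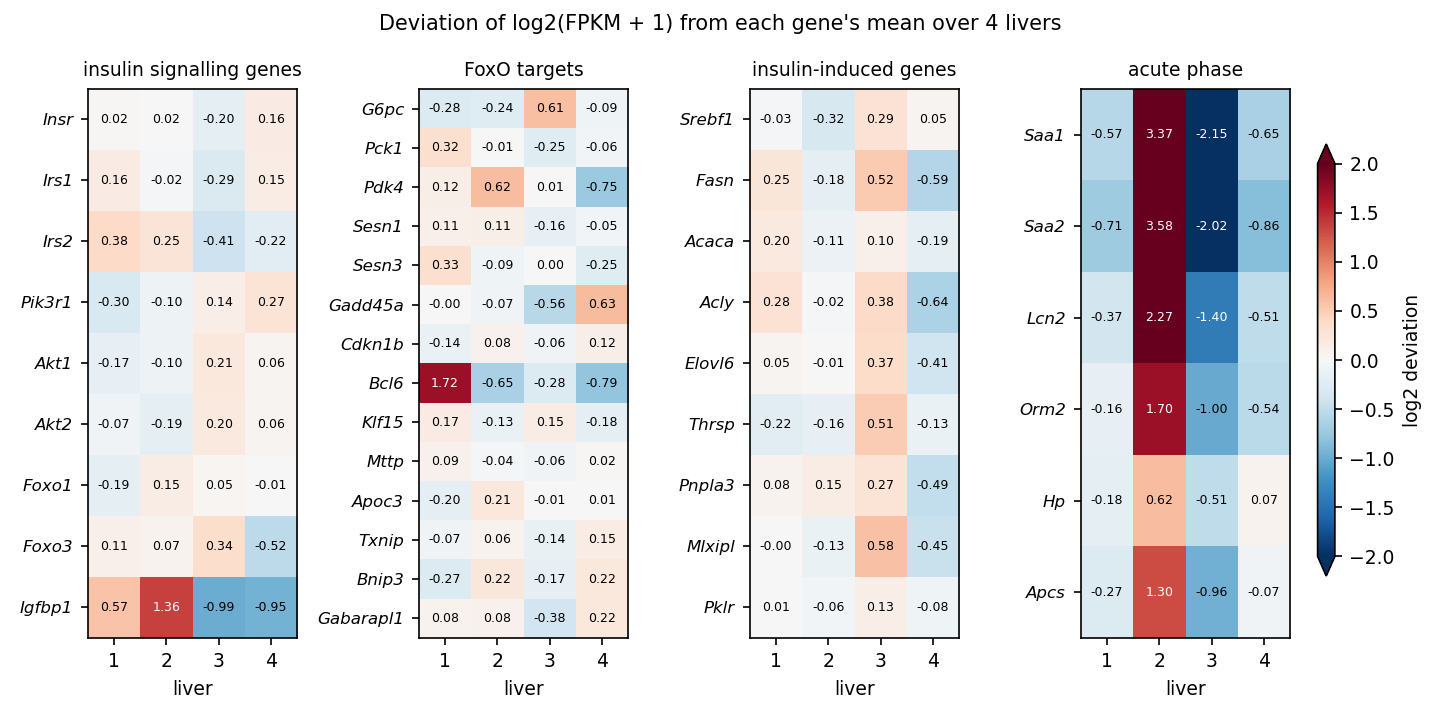
Deviation of log2(FPKM + 1) from the mean of each gene over 4 livers (colour and printed value) for the 9 insulin signalling genes, 14 FoxO targets, 9 of the insulin-induced genes and 6 acute phase genes, with livers in columns. Igfbp1 is high in livers 1 and 2, 8 of the 9 insulin-induced genes drawn are highest in liver 3, and the acute phase genes are all highest in liver 2.

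Liver 2, which had the highest Igfbp1, was also the liver with the highest acute phase transcripts, in 6 of 6 genes (against 22% of all expressed features highest there). Saa1, for example, was at 139, 2135, 45.6 and 131 FPKM. The part of this response in the Igfbp1 values was not tested. Without liver 2 the SD of Igfbp1 on the log2 scale was 0.88, and leaving out any other liver gave up to 1.35.

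The tissue label was checked against marker genes. Of the 6 hepatocyte markers, Ttr, Apoa1, Fabp1, Cps1 and Hnf4a were expressed in all livers, and Alb, the albumin gene, was listed at 0 in all 4. A listed 0 is therefore not read as absence here. The summed hepatocyte markers were lowest in liver 3, at 26633 FPKM, and highest in liver 4, at 34814 FPKM. Liver 4 also had the lowest Foxo3 and the highest summed FPKM of all features. Most of the marker sum came from Apoa1, Fabp1 and Ttr. Cps1 was at 541, 450, 748 and 617 FPKM in livers 1 to 4 and Hnf4a at 93.9, 104, 156 and 118 FPKM. Both were thus highest in liver 3. The part of hepatocyte markers in the members' values was not tested. All 5 pancreatic markers, Ins1 and Ins2 among them, were listed at 0. Of 5 adipocyte markers, Lep, Plin1 and Retn were listed at 0, Adipoq was at most 0.0528 FPKM, and Slc2a4 was at 1.51 to 2.19 FPKM. Other liver cells were present: the summed level was 39.2 to 49.6 FPKM for 5 endothelial markers, 146 to 197 FPKM for 5 macrophage markers, 17.6 to 21.9 FPKM for 4 cholangiocyte markers, 2.49 to 3.83 FPKM for 5 lymphocyte markers and 191 to 295 FPKM for 6 stellate and fibroblast markers. The last sum was 233, 295, 191 and 215 FPKM in livers 1 to 4, highest in the liver with the highest Igfbp1. Of its 6 genes, 4 were highest in liver 2, namely Dcn, Col1a1, Col3a1 and Pdgfrb, whereas Lrat was highest in liver 1 and Reln in liver 4. The cholangiocyte and lymphocyte sums were also highest in liver 2, although only 1 of the 4 cholangiocyte markers was highest there. The endothelial sum was nearly equal in livers 2 and 4, and the macrophage sum was highest in liver 4. Most of these 2 sums came from Clec4g and Lyz2. Of the 5 endothelial markers, 3 were highest in liver 2, 1 in liver 3 and 1 in liver 4. Of the 5 macrophage markers, 2 were highest in liver 2 and 3 in liver 4. The part of these cells in the Igfbp1 values was not tested. In bulk tissue fewer cells of a type and less RNA per cell cannot be told apart, and the members are expressed in several of these cell types.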

How the data were processed

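The authors deposited a single table of 4 value columns, 1 per liver, from poly(A)-enriched libraries per the labels' protocols. FPKM is the unit assumed for the deposited values, since they are not whole numbers, their totals differ between livers, and the identifiers have the form Cufflinks writes. The submitters' processing notes name FastQC 0.10.1, Trim Galore 0.6.3, cutadapt, STAR 2.7.6a, Cufflinks 2.2.1 and mm10, without their roles. The annotation, strand and filters are not given in the sources used here. Columns were matched through the sample descriptions, and 0 columns of other samples were found. Deposited spans overlapped the RefSeq GRCm38 span for 99.5% of 22565 symbols, and 1 was added to each start.

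Values were analysed as FPKM and as log2(FPKM + 1) with Python 3.11.15, numpy 2.4.6 and pandas 2.3.3. Expressed features are those whose mean reached 1 FPKM. The depth estimate used single-transcript genes of GENCODE M21 over 800 bases, with transcript length less 200 bases. Their lowest values were taken to stand for 1 fragment. Only products of FPKM and length between 25 and 75 were used, and the estimate came from their median. This window limits the values that the estimate can take. The number of fragments of a member is approximate, from its longest coding transcript. The unit holds no counts, so no count model was used, and with 1 group no test between groups was possible. Replicates were taken as separate animals, as their titles number separate livers. The members and gene lists were chosen with earlier results of these data known. The named genes are the members, the 3 most abundant and the 2 most variable expressed genes of each list, and the 5 nearest to the member with the largest SD. Some genes that the rule names, or that belong to a list, are not reported here by name but stay in the list counts. Other genes, and the counts of genes by liver order or highest liver, were chosen after values were seen. Alternatives were the pseudocount, the filter, 2 other scalings and leaving out each liver. The SD, the search for the nearest features and Dixon's ratio were tested on simulated data. Dixon's ratio was tested there on log2 values, whereas the reported ratio is on FPKM. The sign-flip test was checked on a made-up example. The depth estimate, family shares, motif search and scalings were not simulated.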

Additional observations from a re-analysis of the deposited data

Results flagged for a closer look

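Among the 74 members and other genes named by rule, 8 had a liver whose gap to the nearest other liver took up nearly the whole range by Dixon's ratio. Chance alone marks about 5% of groups of 4, and 5.64% of all expressed features were marked. These shares cannot be set against 8 of 74. Some of the 74 genes were picked from the same values, as the most variable of a list or the nearest to Igfbp1. None of the 8 was a member. In liver 3, Pik3ca, the catalytic partner of Pik3r1, was low at 3.52 FPKM, while G6pc was high at 242 FPKM, Thrsp at 2012 FPKM and Sh2b2, an adaptor of the receptor, at 2.16 FPKM. In liver 1, Bcl6 was high at 25.6 FPKM. In liver 2, the near-identical genes Saa1 and Saa2 were high at 2135 and 2106 FPKM, and Orm2 at 235 FPKM.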

How the results depend on the processing

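All 9 members had a mean of at least 1 FPKM under every scaling and with any liver left out, and 7 of 9 reached 5 FPKM on average. The number with an SD of at least 0.25 was 4 and moved to 2 with a pseudocount of 5, leaving Foxo3 and Igfbp1. It was between 2 and 5 with a liver left out, 3 under both other scalings, and 5 with a pseudocount of 0.1, which adds Irs1. Igfbp1 was past it in each of these settings. The number with a liver far from the others was 0 and moved to 1 with values scaled to the same sum. The paralogue ratios kept their direction: the log2 ratio was 0.82 to 1.13 for Irs2 to Irs1, 0.38 to 0.45 for Akt2 to Akt1 and -0.66 to -0.36 for Foxo3 to Foxo1 with a liver left out. A pseudocount of 5, which is larger than either level, lowered the Irs2 to Irs1 value to 0.28, a move larger than its SD of 0.41. The 4 acute phase genes in the liver order of Igfbp1 became 0 under both other scalings, which exchange livers 3 and 4 for Igfbp1, and the 5 insulin-induced genes in that of Foxo3 became 8 without liver 1. No paired analysis was possible because there is a single group. Depth limits Irs1 most, at about 176 fragments in liver 3.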

Other observations

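Igf1, the growth factor that liver secretes and that Igfbp1 binds, was at 120, 142, 175 and 176 FPKM in livers 1 to 4. Igfals, which encodes the subunit that holds Igf1 in its circulating complex, was at 28.1, 52.4, 51.1 and 61.9 FPKM. Both were lowest in liver 1, and Pik3r1 was lowest there too. Insulin clearance genes were well expressed, with Ceacam1, which promotes uptake of bound insulin, at 30.1 ± 2.47 FPKM, and Ide, the insulin-degrading enzyme gene, at 26.1 ± 6.12 FPKM (each SD, n = 4). Igf1 has the order of livers of Pik3r1, but its values in livers 3 and 4 are nearly equal.

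Genes of the integrated stress response and of the daily rhythm of liver had no single order of livers. Of the integrated stress list, Atf4 was steady at 43.6 ± 3.74 FPKM (SD, n = 4), while Asns was at 1.37, 3.35, 1.86 and 5.11 FPKM and Chac1 at 2.11, 2.47, 3.99 and 6.21 FPKM, both highest in liver 4. Ddit3 was at 8.61, 5.82, 4.39 and 4.57 FPKM, in the same order of livers as Irs2. Fgf21, a hormone gene of the fasted liver, was at 6.12, 5.61, 8.61 and 4.73 FPKM, in the same order of livers as Foxo3. Among clock genes, Nr1d1 was at 52.7, 39.3, 25.4 and 23.9 FPKM, and Dbp at 118, 103, 102 and 93.6 FPKM, both highest in liver 1. Per1 was at 7.86, 6.41, 11.6 and 7.43 FPKM, and Ciart at 10.9 ± 1.68 FPKM (SD, n = 4).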
